A study of Rattus norvegicus and Mus musculus with 17 samples.

Results

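Bile acids are made from cholesterol in hepatocytes, and the enzymes of this route were followed through 3 models of liver growth. The 10 genes were taken by name, without regard to case, from the 3 deposited tables. They are Cyp7a1, Cyp7b1, Cyp8b1, Cyp27a1, Hsd3b7, Akr1d1, Amacr, Acox2, Slc27a5 and Baat. All 10 are listed in at least 1 table, among 11532 gene symbols in the 3 tables together. The DEN table lists 8 of them (not Cyp7a1 and Acox2), the Morris hepatoma table lists 8 (not Cyp7b1 and Cyp8b1), and the regenerating liver table lists Acox2 only. A gene entered a table only if its deposited p-value was under 0.05. The enzymes seen here were therefore selected for a difference, and those left out of a table were not analysed for it.

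RNA was sequenced from livers of male animals. C57BL/6 mice had been given the carcinogen diethylnitrosamine (DEN, 50 mg/kg) at 14 days of age and the liver mitogen TCPOBOP (2 mg/kg) 30 days after that. Their livers carried tumours at 8 months (n = 3) or were taken before tumours at 5 months (n = 3). Both mouse groups thus share DEN and TCPOBOP and differ in age as well as in tumours, and no mouse liver without DEN is compared. In ACI rats aged 10 weeks, MH3924a cells, a transplantable Morris hepatoma line, were placed in the liver, and tumours were taken 2 weeks later (n = 4). Regenerating liver came from rats of 10 to 12 weeks, also labelled ACI, 24 hours after partial hepatectomy (n = 4). Untreated ACI liver of matched age was the control for both rat groups (n = 3), and both comparisons use the same 3 control libraries. Whether every library stands for a separate animal is not stated in the labels, and the p-values cover only the variation among libraries, which may be technical. Levels are in RPKM, read numbers scaled to transcript length and to the mapped reads of the library, which is per length and so can be compared between genes. The reads behind each value are not in the tables, so the depth is unknown.

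Bile acid synthesis has a classical and an alternative entry. Cyp7a1, the rate-limiting sterol hydroxylase, opens the classical route, and the mitochondrial hydroxylase Cyp27a1 followed by the oxysterol hydroxylase Cyp7b1 opens the alternative one. Hsd3b7, Cyp8b1 and Akr1d1 then change the sterol ring, Amacr and Acox2 act on the side chain in peroxisomes, and Slc27a5 and Baat activate the product and join it to taurine or glycine. In liver these enzymes are found mainly in hepatocytes, under nuclear receptors that sense bile acids and sterols. In whole tissue, fewer hepatocytes and less enzyme RNA per hepatocyte cannot be told apart. RNA from tumour cells and other cells enters the same values.

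The first comparison asked how the enzymes stood in DEN livers with tumours against DEN livers before tumours. All 8 listed enzymes were lower with tumours, from the entry hydroxylases to the conjugating pair. Their means with tumours ranged from 8.47% of the mean before tumours for Cyp8b1 to 43.8% for Amacr. The 3 cytochrome P450 hydroxylases kept the smallest shares, 8.47% for Cyp8b1, 10.5% for Cyp7b1 and 14.7% for Cyp27a1.

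Of the alternative entry, Cyp7b1 (GeneID 13123) had 5.74, 18.1 and 9.75 RPKM in libraries 1 to 3 with tumours. In libraries 1 to 3 before tumours it had 112, 114 and 93.6 RPKM. The groups were far apart, with a log2 fold change of -3.27 ± 0.35 (SE; limma, Benjamini-Hochberg adjusted p = 0.0016). Cyp27a1 (GeneID 104086) had 23.4, 59.8 and 24.96 RPKM with tumours, against 247, 235 and 252 RPKM before tumours. Its 3 values before tumours were nearly equal, while with tumours library 2 stood well above the other libraries. The log2 fold change was -2.86 ± 0.33 (limma adjusted p = 0.0017).

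Of the ring enzymes, Cyp8b1 (GeneID 13124), which directs synthesis toward cholic acid, had 5.79, 38.9 and 8.86 RPKM with tumours, against 306, 217 and 109 RPKM before tumours. The spread was wide in both groups (log2 fold change -3.81 ± 0.70, limma adjusted p = 0.017). Hsd3b7 (GeneID 101502), the dehydrogenase of the step after the first hydroxylation, had 43.7, 68.6 and 41.1 RPKM with tumours, against 207, 224 and 196 RPKM before tumours. The groups were well apart, with library 2 the highest in each (log2 fold change -2.05 ± 0.21, limma adjusted p = 0.00073). Akr1d1 (GeneID 208665), the reductase of the ring double bond, had 20.1, 13.8 and 5.41 RPKM with tumours, against 80.8, 51.8 and 45.97 RPKM before tumours. Library 1 was the highest in each group, and the log2 fold change was -2.22 ± 0.44 (limma adjusted p = 0.021).

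Of the side-chain enzymes, Amacr (GeneID 17117), the racemase, had 29.1, 18.3 and 14.0 RPKM with tumours, against 44.97, 48.6 and 46.5 RPKM before tumours. Its log2 fold change of -1.21 ± 0.24 was the smallest in size of the 8 (limma adjusted p = 0.013). Slc27a5 (GeneID 26459), the bile acid CoA ligase, had 69.8, 103 and 63.7 RPKM with tumours, against 296, 289 and 258 RPKM before tumours. Baat (GeneID 12012), the amino acid transferase, had 21.2, 39.7 and 30.9 RPKM with tumours, against 119, 118 and 106 RPKM before tumours. The conjugating enzymes kept similar shares, 28.1% for Slc27a5 and 26.9% for Baat, with log2 fold changes of -1.85 ± 0.20 and -1.90 ± 0.22 (limma adjusted p = 0.00094 and 0.0012).

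**Figure D1:**
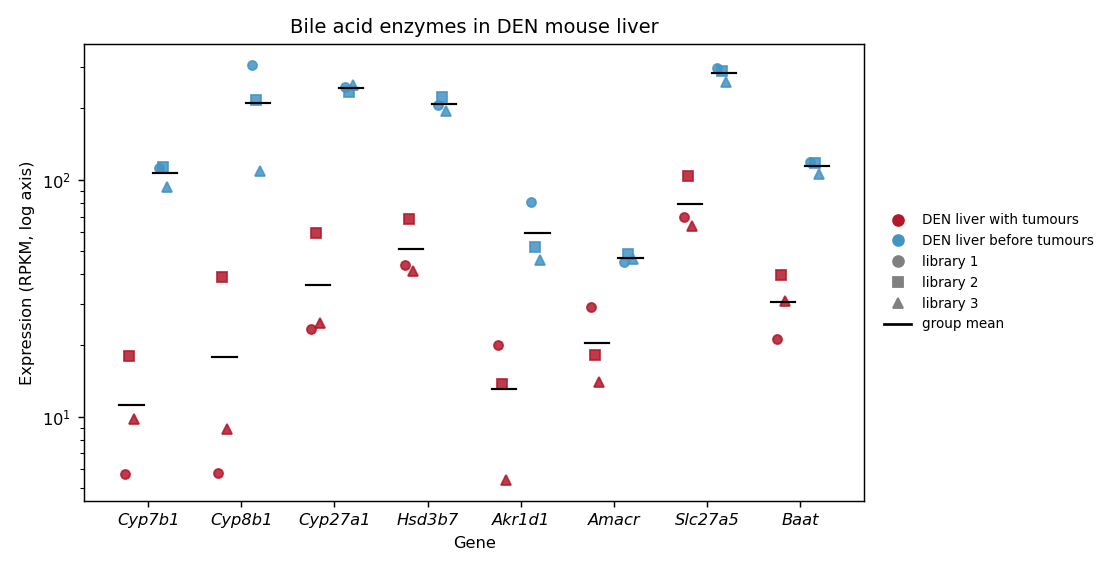
RPKM, on a log axis, of the 8 listed bile acid enzymes in DEN livers with tumours (red, left) and before tumours (blue, right); marker shapes give the library and black lines the group mean. No enzyme overlaps between the groups, which holds for nearly all tested genes, as they were selected on p-value. The gap is narrowest for Amacr, with 14.0 to 29.1 RPKM with tumours and 44.97 to 48.6 RPKM before tumours.

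All 8 passed the threshold (adjusted p under 0.05) as lower, in a table where 49.5% of the 3684 tested genes did so. Their median log2 fold change was -2.14, beside -0.56 for all tested genes. Being lower without overlap was shared by 75.1% of the tested genes, 2766 of 3684, and 917 more were higher without overlap. Nearly every gene selected on p-value thus had groups apart, so absence of overlap does not set the enzymes apart. With equal library medians the median of all tested genes moved by 0.40, the calls over all genes became 912 higher and 614 lower, against 658 higher and 1823 lower as deposited, and Amacr was no longer called (adjusted p = 0.20). Under quantile normalization the split was 883 higher and 589 lower, and neither Amacr (adjusted p = 0.53) nor Akr1d1 (0.097) was called; all 8 stayed lower in both. The selected genes listed here were 1328 higher and 3321 lower, so both scalings move calls toward higher by construction. Without library 1 or library 2 before tumours 5 of 8 were called, and Cyp8b1, Akr1d1 and Amacr had adjusted p between 0.057 and 0.081.

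With tumours Slc27a5 stood first at 79.0 ± 21.4 RPKM and Cyp7b1 last at 11.2 ± 6.30 RPKM (SD, n = 3), and every enzyme overlapped its neighbour in the order. Before tumours Slc27a5 was also first, at 281 ± 20.1 RPKM, above all libraries of Cyp27a1 (244 ± 8.43 RPKM). Cyp8b1 overlapped both Cyp27a1 and Hsd3b7 there, Baat and Cyp7b1 overlapped (114 ± 7.25 and 107 ± 11.3 RPKM), and Akr1d1 and Amacr were lowest. Library 2 held the highest value with tumours of 6 of the 8 enzymes, all but Akr1d1 and Amacr. It also had the lowest summed level of the listed cell division markers Mki67, Ccnb1 and Top2a with tumours, 4.29 RPKM, against 10.9 and 9.67 RPKM in libraries 1 and 3 with tumours and 1.12 to 1.74 RPKM before tumours. The part of cell division in the enzyme levels was not tested.

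Hepatocyte marker genes did not move as a block in these mouse livers. Of 12 markers 6 are listed, and their summed level was 148711 to 166882 RPKM with tumours and 60765 to 74282 RPKM before tumours. Albumin (Alb) was at 349%, 320% and 341% of its mean before tumours in the 3 libraries with tumours (limma adjusted p = 0.00061). Ahsg was at 445%, 366% and 320%, and Apoa1 at 277%, 235% and 232% (limma adjusted p = 0.00047 and 0.0024). Apoa2 fell, to 45.9%, 59.4% and 36.0% (adjusted p = 0.011), while Apoh at 71.1% to 85.3% and Cps1 at 21.1% to 69.8% did not pass the threshold. The enzymes were thus lower in livers in which 3 abundant hepatocyte transcripts were higher. RPKM is a share of the mapped reads, and the part of these abundant transcripts in the enzyme values was not tested.

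Other cell types also differed between the mouse groups. The listed Kupffer cell and macrophage markers (5 of 9) summed to 25.3 to 46.0 RPKM with tumours and 64.9 to 74.0 RPKM before tumours, and endothelial markers (4 of 8) to 22.8 to 38.4 RPKM and 14.5 to 19.9 RPKM. Within these sums Cd68 went the other way from Timd4 and Clec4f, at 130% to 146% of its mean before tumours (limma adjusted p = 0.048), and the endothelial Tek was at 37.8% to 83.04% and did not pass (0.084). Of stellate cell markers only Acta2 is listed (1 of 9), at 11.0 to 19.5 RPKM with tumours and 2.76 to 5.20 RPKM before tumours, and of cholangiocyte markers only Sox9 (1 of 7), at 7.99 to 10.9 RPKM and 2.38 to 4.36 RPKM. Their part in the enzyme values was not tested.

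Other genes linked to the route moved mostly the same way in DEN livers. The list of 20 further genes of synthesis and amidation also holds carriers and electron donors, so not every gene is a step of synthesis. Of these 20 genes 16 are listed, 14 passed the filter on low values, 12 fell, 1 rose and 1 did not pass. Over all tested genes 49.5% were called lower. The median log2 fold change was -1.72 for the list and -0.56 for all tested genes. With equal library medians 9 fell and 1 rose, and under quantile normalization 6 fell and 1 rose. Cyp3a11, a steroid and drug hydroxylase, was at 331 ± 403 RPKM with tumours and 5432 ± 1275 RPKM before tumours (log2 fold change -4.81 ± 0.86, limma adjusted p = 0.016). Nudt7, a peroxisomal CoA hydrolase, was at 38.7 ± 5.23 RPKM with tumours and 308 ± 67.3 RPKM before tumours (-2.94 ± 0.20, adjusted p = 0.00020), and Akr1c14 and Por, the electron donor of P450 enzymes, followed at -2.25 and -2.15. The gene that rose was Cyp39a1, an oxysterol hydroxylase, at 27.4 ± 6.74 RPKM with tumours and 6.74 ± 3.60 RPKM before tumours (1.95 ± 0.35, adjusted p = 0.013). It is named, outside the rule for named genes, because it was the only tested gene of its list called higher. Ch25h, cholesterol 25-hydroxylase, did not pass the filter on low values and was not tested, with 1.52, 1.07 and 0.576 RPKM with tumours, against 0.0438, 0.150 and 0.0464 RPKM before tumours.

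Of 20 regulators 8 are listed in the DEN table, 7 fell and none rose. Their median log2 fold change was -0.84, beside -0.56 for all tested genes, of which 49.5% were called lower. Nr1h4, the bile acid receptor FXR, was at 17.5 ± 6.67 RPKM with tumours and 69.97 ± 20.0 RPKM before tumours (log2 fold change -1.96 ± 0.29, limma adjusted p = 0.0049). The constitutive androstane receptor Nr1i3, Nr0b2 (SHP, the repressor induced by FXR) and Mafg followed at -1.14, -0.92 and -0.85. Nr0b2 is known to repress Cyp7a1 and Cyp8b1. With equal library medians, and under quantile normalization, Nr1h4 was the 1 regulator still called. Of 14 bile salt and sterol transporters 5 are listed and all 5 fell, 4 under either scaling. Their median log2 fold change was -3.09, beside the same -0.56 and 49.5% for all tested genes. The uptake carriers Slco1b2 (-3.94 ± 0.70) and Slc10a1 (-3.30 ± 0.41) led, and Slc10a1 was at 55.5 ± 37.2 RPKM with tumours and 485 ± 36.1 RPKM before tumours (adjusted p = 0.0031).

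The second comparison asked how the enzymes stood in Morris hepatoma against control rat liver. All 8 listed enzymes were lower in every hepatoma library than in every control library, with hepatoma means from 5.11% of the control mean for Baat to 27.7% for Hsd3b7. Cyp7a1, Cyp27a1, Hsd3b7 and Amacr passed the threshold, and Akr1d1, Acox2, Slc27a5 and Baat did not. The hepatoma libraries were split, with libraries 3 and 4 well above libraries 1 and 2 for every enzyme.

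Promoter sequence was at hand for 7 of the 10 rat genes, from RefSeq on build GRCr8, as windows of 300 bases from 250 before to 50 after the gene start. Each was searched on both strands for words that liver factors are known to bind: CAAGGTCA (the NR5A2 word), CAAAGTCCA (an HNF4A word), AGGTCA (the nuclear receptor core word, which lies within the NR5A2 word) and TTGCNNAA (a C/EBP word). They occur in 1.52%, 0.391%, 16.2% and 10.6% of all 33469 windows. At least 1 word was found for Baat, Cyp27a1 and Amacr, and none in the windows of Hsd3b7, Cyp8b1, Acox2 and Slc27a5. The sequences below, 5′ to 3′ on the strand of the gene with the words in capitals, are those of the 3 genes with a word and of Hsd3b7, which kept the highest share in hepatoma. Baat is at chr5:68656088-68656387 on the minus strand, with the HNF4A word starting at -90. Cyp27a1 is at chr9:83713282-83713581 on the plus strand, with the NR5A2 word on the opposite strand at -236 and the core word at -115. Amacr is at chr2:61673085-61673384 on the plus strand, with the core word at -201, and Hsd3b7 is at chr1:191842438-191842737 on the plus strand. A match of letters is a description and not evidence that a factor binds there.
Baat: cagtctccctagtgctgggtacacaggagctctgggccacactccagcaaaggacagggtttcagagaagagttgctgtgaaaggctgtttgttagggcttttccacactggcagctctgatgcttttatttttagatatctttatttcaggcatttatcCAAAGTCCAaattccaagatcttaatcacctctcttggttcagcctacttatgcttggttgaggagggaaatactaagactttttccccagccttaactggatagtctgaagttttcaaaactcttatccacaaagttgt
Cyp27a1: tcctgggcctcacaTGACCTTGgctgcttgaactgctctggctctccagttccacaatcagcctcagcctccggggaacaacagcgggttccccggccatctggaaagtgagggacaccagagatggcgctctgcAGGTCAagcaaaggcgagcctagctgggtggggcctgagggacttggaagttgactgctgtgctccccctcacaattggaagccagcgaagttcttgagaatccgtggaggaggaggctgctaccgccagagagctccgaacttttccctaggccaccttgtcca
Amacr: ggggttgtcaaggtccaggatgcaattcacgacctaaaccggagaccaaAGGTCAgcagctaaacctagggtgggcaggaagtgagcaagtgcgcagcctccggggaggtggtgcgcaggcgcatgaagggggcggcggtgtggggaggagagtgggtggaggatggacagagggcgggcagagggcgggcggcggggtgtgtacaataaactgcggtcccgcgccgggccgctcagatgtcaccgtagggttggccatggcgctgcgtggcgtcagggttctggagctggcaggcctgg
Hsd3b7: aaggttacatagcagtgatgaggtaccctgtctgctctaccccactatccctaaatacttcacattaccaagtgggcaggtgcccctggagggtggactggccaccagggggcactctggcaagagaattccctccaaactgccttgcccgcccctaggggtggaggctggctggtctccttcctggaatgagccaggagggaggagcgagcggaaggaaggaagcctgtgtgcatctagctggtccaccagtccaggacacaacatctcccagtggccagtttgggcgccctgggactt

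Of the entry enzymes, Cyp7a1 (GeneID 25428) had 0.576, 0.001, 1.72 and 1.67 RPKM in hepatoma libraries 1 to 4, against 17.7, 15.4 and 3.72 RPKM in control libraries 1 to 3. The 0.001 is the value the table gives in place of 0, and control library 3 was well below the other controls. The log2 fold change was -2.62 ± 0.61 (SE; limma, Benjamini-Hochberg adjusted p = 0.015). Cyp27a1 (GeneID 301517), whose promoter holds the NR5A2 word, had 6.81, 6.38, 34.1 and 27.7 RPKM in hepatoma, against 165, 183 and 74.9 RPKM in control liver. Hepatoma libraries 1 and 2 were close to each other here, and the log2 fold change was -3.09 ± 0.71 (limma adjusted p = 0.015).

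Of the ring enzymes, Hsd3b7 (GeneID 246211) had 14.5, 17.9, 28.8 and 29.0 RPKM in hepatoma, against 92.9, 109 and 42.5 RPKM in control liver. It varied least among the hepatoma libraries (log2 fold change -1.76 ± 0.37, limma adjusted p = 0.0041). Akr1d1 (GeneID 192242) had 3.68, 0.120, 44.2 and 34.01 RPKM in hepatoma, against 264, 294 and 112 RPKM in control liver. Its hepatoma values spanned from 0.0537% to 19.8% of the control mean, and it did not pass (-4.44 ± 1.46, limma adjusted p = 0.074).

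Of the peroxisomal enzymes, Amacr (GeneID 25284) had 8.84, 5.53, 45.7 and 25.2 RPKM in hepatoma, against 225, 253 and 208 RPKM in control liver. The controls were close to each other, and it passed at -3.77 ± 0.70 (limma adjusted p = 0.0052). Acox2 (GeneID 252898), the branched-chain acyl-CoA oxidase, had 2.17, 0.0109, 34.4 and 28.8 RPKM in hepatoma, against 128, 145 and 114 RPKM in control liver. With the controls as even as those of Amacr, its wider hepatoma spread went with a larger error, and it did not pass (-4.09 ± 1.41, limma adjusted p = 0.088).

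Of the conjugating enzymes, Slc27a5 (GeneID 79111) had 2.31, 0.104, 51.3 and 39.9 RPKM in hepatoma, against 223, 285 and 186 RPKM in control liver (log2 fold change -4.603 ± 1.54, limma adjusted p = 0.079). Baat (GeneID 29725), whose promoter holds the HNF4A word, had 5.87, 0.221, 51.4 and 34.6 RPKM in hepatoma, against 588, 619 and 143 RPKM in control liver. Its log2 fold change of -5.07 ± 1.499 was the largest in size of the 8 and narrowly missed the threshold (limma adjusted p = 0.05003).

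**Figure D2:**
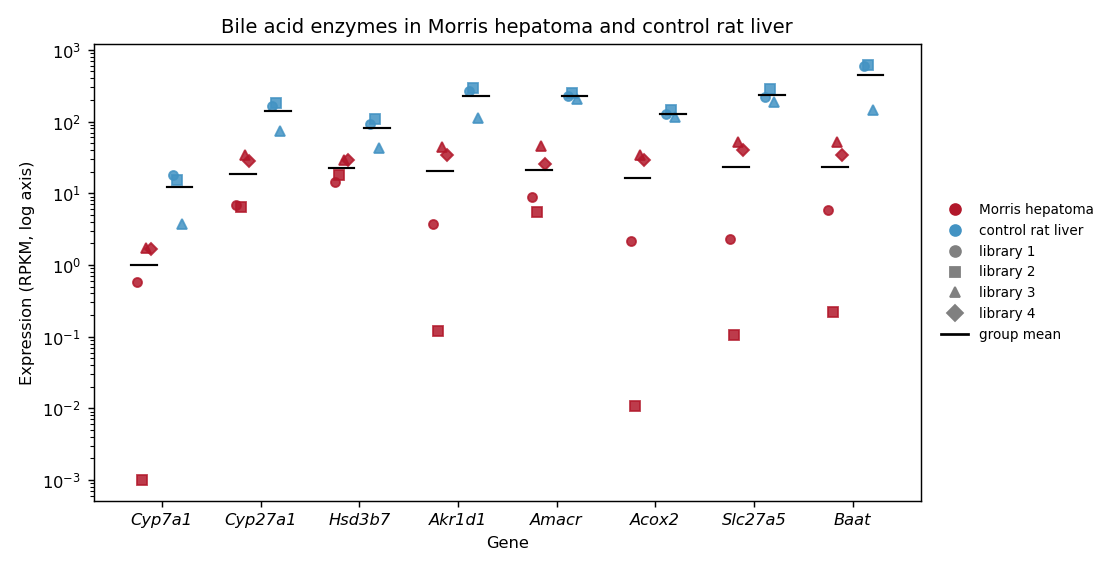
RPKM, on a log axis, of the 8 listed bile acid enzymes in Morris hepatoma (red, left) and control rat liver (blue, right); marker shapes give the library and black lines the group mean. Hepatoma libraries 3 and 4 lie above libraries 1 and 2 for each enzyme, and library 2 falls to 0.001 RPKM for Cyp7a1 and 0.0109 RPKM for Acox2.

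The 4 calls stand in a table where 8.73% of the 8233 tested genes were called lower and 85.5% higher. The median log2 fold change of the 8 enzymes was -3.93, beside 1.58 for all tested genes. Of the tested genes 11.4% were lower without overlap, and 7176 of the 8233 were higher without overlap. Absence of overlap was thus common to nearly all of these selected genes. With equal library medians, which moved the median of all genes by -1.66, all 8 were called lower and the calls over all genes were 2029 higher and 2389 lower, against 7042 higher and 719 lower as deposited. Under quantile normalization 6 were called and the split was 2514 higher and 1878 lower. Both scalings presume libraries alike over all genes, but the genes listed here were selected, 7973 higher and 1109 lower. The scaled calls therefore shift toward lower by construction, and which values are nearer the truth was not tested. Without hepatoma library 2, or without library 3, all 8 were called, and without control library 1 or 2 only 2 were. Cyp7a1 was also not called with a pseudocount of 0.1 (adjusted p = 0.055) or without hepatoma library 1 (0.052).

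The hepatoma libraries also differed in hepatocyte markers. The 10 listed hepatocyte markers of 12 summed to 1032, 40.4, 23879 and 20275 RPKM in hepatoma libraries 1 to 4, and to 123559, 111066 and 89852 RPKM in control libraries 1 to 3. As a share of the control mean, the median marker was at 0.987%, 0.0378%, 29.3% and 22.9% in libraries 1 to 4. In libraries 3 and 4, 8 and 7 of the 8 enzymes lay within the range of the markers, 1.21% to 51.5% and 2.96% to 33.0%. Apoa2 alone set the lower ends, and the next lowest marker, Ttr, was at 12.1% and 10.3%. Baat, at 11.4% and 7.68%, lay below Ttr in both libraries. In library 1 the markers were at 0.695% to 1.39%, and 6 of the 8 enzymes lay above that, led by Hsd3b7 at 17.9%.

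Library 2 separated the enzymes most. There the markers stood at 0.0139% to 0.0686% of the control mean, Alb at 0.0325%, while Hsd3b7 was at 22.0%, Cyp27a1 at 4.53% and Amacr at 2.42%. Akr1d1 (0.0537%), Baat (0.0490%) and Slc27a5 (0.0451%) lay within the marker range, and Acox2 (0.00844%) and Cyp7a1 (0.00815%, its table minimum) lay below it. Relative to control liver, Hsd3b7, Cyp27a1 and Amacr thus kept larger shares than any of the 10 hepatocyte markers in that library.

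**Figure D3:**
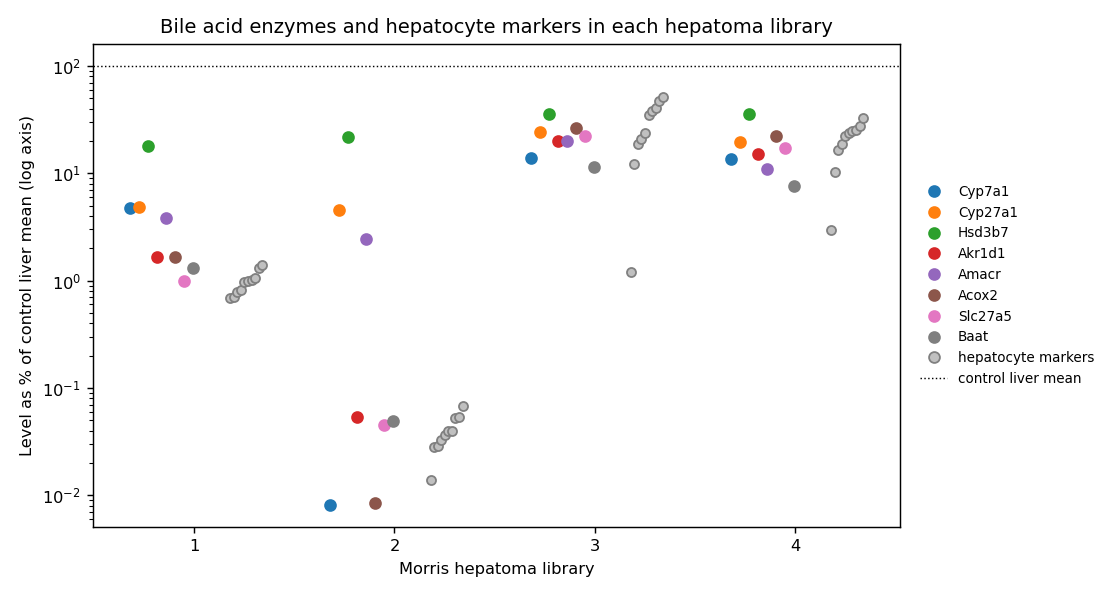
Level in each Morris hepatoma library as a percent of the control liver mean (log axis; dotted line, control mean) for the 8 listed bile acid enzymes (coloured) and the 10 listed hepatocyte markers (grey, sorted). Enzymes and markers share a range in libraries 3 and 4, where Apoa2 alone sets the lower end of the markers. In library 2 Hsd3b7, Cyp27a1 and Amacr lie at 22.0%, 4.53% and 2.42% and the markers below 0.07%.

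The control libraries were not alike either. Control library 3, as a share of the mean of controls 1 and 2, was at 22.5% for Cyp7a1, 23.7% for Baat, 40.1% for Akr1d1, 42.3% for Hsd3b7 and 43.0% for Cyp27a1, and at 73.2% to 87.0% for Slc27a5, Acox2 and Amacr. Its summed cell division markers (Ccnb1, Cdk1 and Top2a, 3 of 4 listed) were 7.51 RPKM, against 1.15 and 0.977 RPKM in controls 1 and 2, and 203 to 333 RPKM in hepatoma. In control liver Baat was the most abundant at 450.1 ± 267 RPKM (SD, n = 3), but from Baat down to Acox2 (129 ± 15.3 RPKM) each enzyme overlapped its neighbour. Hsd3b7 (81.3 ± 34.5 RPKM) and Cyp7a1 (12.3 ± 7.49 RPKM) were each clear of the enzyme just above them in the order.

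Markers of most other cell types stood higher in hepatoma. Stellate cell and fibroblast markers (7 of 9 listed) summed to 471 to 1195 RPKM in hepatoma and 20.2 to 84.6 RPKM in control liver, endothelial markers (3 of 8) to 45.5 to 74.7 RPKM and 6.48 to 11.6 RPKM, and cholangiocyte markers (2 of 7), mainly Spp1, to 196 to 277 RPKM and 5.13 to 9.60 RPKM. Macrophage and Kupffer cell markers (4 of 9) summed to 122 to 173 RPKM in hepatoma and 145 to 168 RPKM in control liver, but the members moved apart. Cd68 (log2 fold change 1.67) and Cd163 (1.00) were called higher and the Kupffer cell lectin Clec4f (-2.54) lower, and Cd5l (-3.02) did not pass (limma adjusted p = 7.6e-05, 0.0069, 0.012 and 0.053). The part of hepatocyte content and of these cells in the enzyme values was not tested.

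Of the 20 further synthesis and amidation genes 13 are listed in the hepatoma table and 12 passed the filter on low values. Of these, 8 fell, 3 rose and 1 did not pass, where 8.73% of all tested genes were called lower and 85.5% higher. The median log2 fold change was -1.02 for the list and 1.58 for all tested genes. Cholesterol 25-hydroxylase (Ch25h), which makes an oxysterol in immune and other cells, was at 24.5 ± 8.35 RPKM in hepatoma and 0.0999 ± 0.112 RPKM in control liver (log2 fold change 4.48 ± 0.26, limma adjusted p = 9.8e-07), and stayed higher under both scalings. The other genes that rose, Acot8 and Por, had negative log2 differences under both scalings. Acot8 was called lower in both, but Por was not called under quantile normalization (-0.56, limma adjusted p = 0.065). Akr1c14 (-4.22 ± 1.10), Cyp39a1 (-3.78 ± 0.71) and the peroxisomal thiolase and sterol carrier Scp2 (-3.25 ± 0.63) fell furthest among the genes called lower, while Slc27a2, a fatty acid and bile acid CoA ligase, did not pass at -4.38 ± 1.59 (adjusted p = 0.10). Cyp39a1 was at 2.34 ± 2.57 RPKM in hepatoma and 35.4 ± 10.5 RPKM in control liver (adjusted p = 0.0064), opposite in direction to its rise in the DEN livers, a difference between models that was not tested.

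Of the 20 regulators 10 are listed and 9 were tested, with 3 lower, 2 higher and 4 not passing. Beside them 8.73% of all tested genes were called lower and 85.5% higher. Nr1h4 was at 4.73 ± 4.604 RPKM in hepatoma and 31.3 ± 12.8 RPKM in control liver (-2.81 ± 0.77, limma adjusted p = 0.035). The oxysterol receptor Nr1h3 (LXR alpha) and the retinoid partner Rxra also fell, at -1.82 and -1.26. Mafg, a repressor of bile acid synthesis genes, was higher at 1.40 ± 0.33 (adjusted p = 0.0077), but had a negative log2 difference under either scaling. Nr5a2, whose word lies in the Cyp27a1 window, did not pass as deposited (-1.44 ± 0.58, adjusted p = 0.13), and did with equal library medians (adjusted p = 0.013). Of the 14 transporters 8 are listed and 7 tested. The uptake carrier Slc10a1 was at 9.27 ± 8.03 RPKM in hepatoma and 390 ± 264 RPKM in control liver (-5.32 ± 1.04, adjusted p = 0.0092), and the canalicular bile salt pump Abcb11 (-4.07 ± 1.03), the canalicular conjugate pump Abcc2 and Slco1a1 fell with it, as did Abcg5. The basolateral exporters Abcc3 (1.82 ± 0.17) and Abcc4 (1.55 ± 0.24) rose, but neither was called under either scaling, where Abcc4 was slightly lower.

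**Figure D4:**
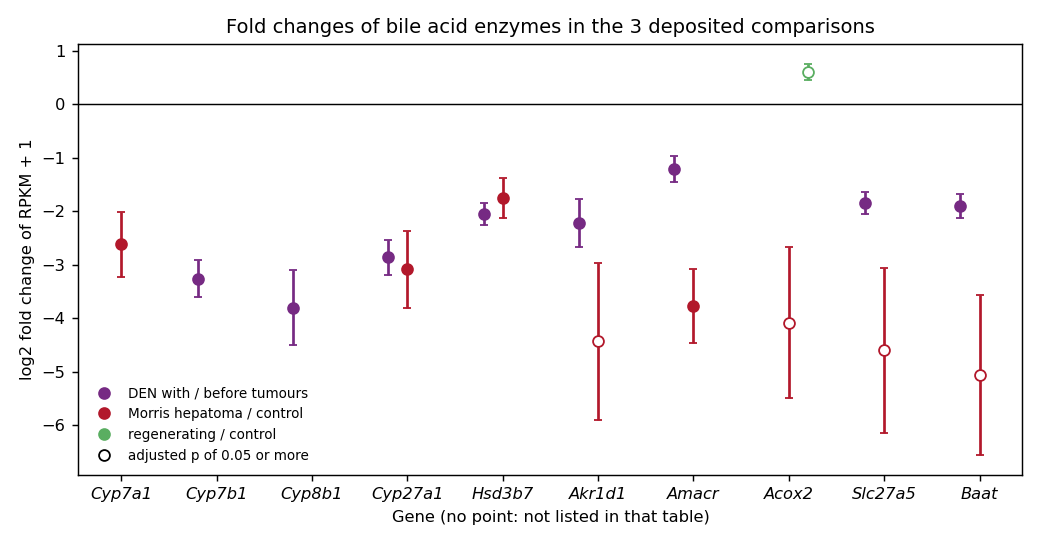
Log2 fold change (± SE) of RPKM + 1 for the 10 enzymes in DEN livers with against before tumours (purple), Morris hepatoma against control (red) and regenerating against control liver (green); filled points have an adjusted p under 0.05 and a missing point means the gene is not listed. Every DEN and Morris point lies below 0, between -5.07 and -1.21, and Acox2 in regenerating liver lies at 0.61.

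The 6 enzymes listed in both the DEN and the Morris tables can be set side by side, although species and table differ. The references differ too, liver given DEN and TCPOBOP in mice and untreated liver in rats. The hepatoma means also join unlike libraries, from 0.0537% to 19.8% of the control mean for Akr1d1. The difference between models was not tested. Cyp27a1 was at 14.7% of its mean before tumours in DEN livers with tumours, and at 13.3% of control in hepatoma. Hsd3b7 was at 24.4% in DEN livers and at 27.7% in hepatoma. The other 4 stood at smaller shares in hepatoma: Akr1d1 at 22.0% in DEN livers and 9.17% in hepatoma, Amacr at 43.8% and 9.34%, Slc27a5 at 28.1% and 10.1%, and Baat at 26.9% and 5.11%.

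The third comparison asked how growth without a tumour, 24 hours after partial hepatectomy, compared with control liver. Acox2 was the single enzyme of the route listed. It had 159, 206, 225 and 203 RPKM in regenerating libraries 1 to 4, against 128, 145 and 114 RPKM in control libraries 1 to 3. The groups did not overlap, and the mean was 198 ± 28.1 RPKM in regenerating liver and 129 ± 15.3 RPKM in control liver (SD, n = 4 and 3), 1.53-fold higher. It did not pass the threshold (log2 fold change 0.61 ± 0.15, limma unadjusted p = 0.00254, adjusted p = 0.091). Of the 1703 genes tested there 21.2% were called higher and 89.4% were higher without overlap, and the median of all tested genes was 0.53. The selected genes listed there were 1965 higher and 128 lower, so both scalings move differences toward lower by construction. With equal library medians the difference of Acox2 was near 0, at -0.0179 ± 0.139, and under quantile normalization it was 0.35 ± 0.11 (adjusted p = 1.0 in both).

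Morris hepatoma was set directly against regenerating liver for Acox2, the 1 enzyme listed in both rat tables. Its mean was 16.3 ± 17.8 RPKM in hepatoma and 198 ± 28.1 RPKM in regenerating liver (SD, n = 4 each), 8.24% of the regenerating mean, with no overlap. The log2 difference of -4.70 ± 1.24 did not pass over all genes (limma unadjusted p = 0.00843, adjusted p = 0.13), where 4.0% of the 1673 tested genes were called lower and 5.92% were lower without overlap. None of the 12 hepatocyte markers is listed for regenerating liver, and its summed cell division markers (3 of 4 listed) were 26.8 to 91.6 RPKM.

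**Figure D5:**
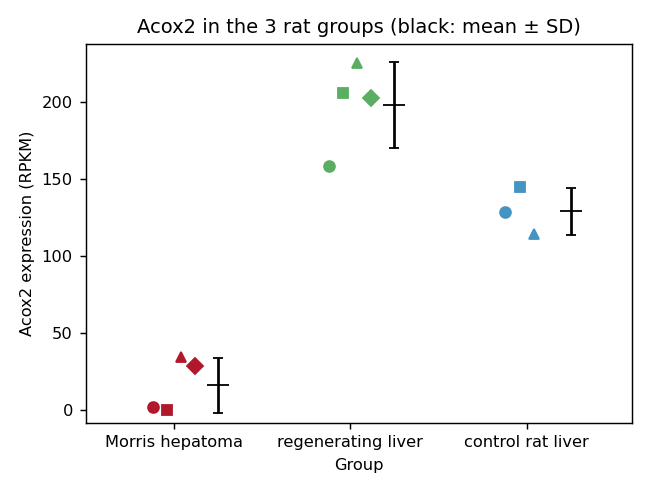
Acox2 in RPKM in each library of Morris hepatoma, regenerating liver and control rat liver, with mean ± SD in black; marker shapes give libraries 1 to 4. The 4 hepatoma libraries lie between 0.0109 and 34.4 RPKM, below every regenerating (159 to 225 RPKM) and control (114 to 145 RPKM) library.

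Few related genes are listed for regenerating liver. Of all 1703 genes tested there 21.2% were called higher, and the listed genes were mostly higher (1965 higher and 128 lower). Of the further genes 5 are listed and 4 tested. Por rose, at 102 ± 13.3 RPKM in regenerating liver and 48.9 ± 3.13 RPKM in control liver (log2 fold change 1.03 ± 0.14, limma adjusted p = 0.011). Of the regulators 2 are listed, and Rxra rose by 0.75 ± 0.16 (adjusted p = 0.048). Of the transporters 2 are listed and both rose: the sterol exporter pair Abcg5 (10.5 ± 1.05 RPKM in regenerating liver and 1.84 ± 0.0601 RPKM in control liver, 2.02 ± 0.12, adjusted p = 8.1e-05) and Abcg8 (2.17 ± 0.304 and 0.471 ± 0.217 RPKM, 1.11 ± 0.14, adjusted p = 0.011). Under both scalings only Abcg5 was still called. In hepatoma against regenerating liver 4.0% of the 1673 tested genes were called lower. Abcg5 (-3.28 ± 0.14), Abcg8 (-1.64 ± 0.11), the oxysterol receptor Nr1h3 (-2.43 ± 0.31) and Rxra (-2.01 ± 0.32) were lower and called. So were Aldh3a2 (-1.59) and Nudt7 (-1.45) of the 4 tested further genes. Under both scalings all 4 of these further genes were called lower, Acot8 and Por included. Equal library medians moved the median of all tested genes by -1.54, and 482 of the 1673 were called lower. Under quantile normalization it moved by -1.41, and 433 were called lower. As deposited Acot8 was at -0.086, and neither Acot8 nor Por was called.

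The genes whose profile was most like that of the enzymes were found as the smallest root mean square difference from their median standardized profile, as a description. In the 6 DEN libraries, among 3676 genes, these were Alas2 (0.0321), Ttc39c (0.0347), Macrod1 (0.0480), Stk11 (0.0486) and C730036e19rik (0.0539), while the enzymes themselves lay between 0.0392 for Slc27a5 and 0.483 for Amacr. Alas2, the erythroid enzyme of haem synthesis, averaged 9.65 RPKM with tumours and 73.9 RPKM before tumours. In the 7 Morris and control libraries, among 8225 genes, they were Akr1c14 (0.0382), Cideb (0.0449), Slc26a1 (0.0471), Ttpa (0.0478) and Gltpd2 (0.0485), with the enzymes between 0.104 for Baat and 0.314 for Hsd3b7. Akr1c14 is itself an enzyme of the further synthesis list. For Acox2 in the 7 regenerating and control libraries the nearest were Tollip (0.138), L3hypdh, Rgd1309540, Stard7 and Nmrk1.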

How the data were processed

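RNA of 17 liver libraries was compared in 3 deposited tables, 1 per comparison. The values were read as RPKM computed by the authors, since the file headers name no unit; the sources used here do not give the aligner, genome build or annotation. The tables list 4649, 9082 and 2093 genes with the authors' p-value under 0.05, and 0.001 stands in place of 0. The headers label these p-values holm without saying over what they were corrected. They should not be read as corrected over all genes. The authors' deposited log2 ratios were used only to count listed genes as higher or lower and for a check against the group means.

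The members, gene lists and tests were chosen with earlier results of these data known. A gene was tested if a number of libraries equal to the size of the smaller group reached 1 RPKM. The test was limma 3.58.1 in R 4.3.3 on log2(RPKM + 1), which understates changes of low genes, with trended and robust variance. The variance trend was fitted on the same selected genes, so the errors and p-values may be too small. P-values were adjusted by Benjamini-Hochberg over all protein-coding genes (mouse 21951, GENCODE M21; rat 23154, RefSeq GRCr8), because the tables hold only a selected part of the genes. Calls are at adjusted p under 0.05. Equal library medians and quantile normalization presume libraries alike over all genes, which lists selected on p-value and mostly of a single direction do not meet. Results under either scaling therefore show dependence on processing and do not decide which values are right. Named genes are all 10 members, up to 4 called genes per pathway list with the largest change, and 5 genes of like pattern; Cyp39a1 and Ch25h in DEN, and Acot8, Por, Slc27a2, Nr5a2, Abcc3, Abcc4 and Abcg5 in hepatoma, were added after their values were seen. All 1752 genes in both rat tables have identical control values (tolerance 1e-06 RPKM). Tables, promoters and figures were prepared with Python 3.11.15, pandas 2.3.3, scipy 1.17.1 and matplotlib 3.10.9.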

Additional observations from a re-analysis of the deposited data

How the results depend on the processing

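Of 264 recomputed values of single enzymes, 214 kept direction and call, 27 became called, 22 lost their call and 1 changed sign, Acox2 in regenerating liver, which was near 0 at -0.0179 ± 0.139 with equal library medians (the cause was not tested). In DEN livers, 8 enzymes were called in the main analysis, and 5 to 8 when 1 library was left out, 5 without library 1 or 2 before tumours. Baat, Cyp27a1, Cyp7b1, Hsd3b7 and Slc27a5 kept their calls in all 14 alternatives. In Morris hepatoma, 4 were called, 8 with equal library medians, 8 without trended and robust variance, 8 with adjustment over the genes tested (fewer genes), 6 under quantile normalization, 5 with no filter on low values, and 3 with a pseudocount of 0.1 or the filter at 5 RPKM. It was 2 to 8 when 1 library was left out, 8 without hepatoma library 2 or 3 and 2 without control library 1 or 2, and 0 of the 1 enzyme testable with all 3 rat groups in 1 fit. For regenerating liver the count was 0, and 1 with adjustment over the genes tested. For hepatoma against regenerating liver it was 0, and 1 under quantile normalization, without trended and robust variance, and with adjustment over the genes tested. Leaving out 1 library gave 0 to 0 there and in regenerating liver. The labels pair no libraries. Deviations of like-numbered libraries from their group means had correlations from -0.32 to 0.15. These cannot settle pairing, because deviations within a small group cancel out. With the replicate block 7 enzymes were called in DEN and 1 in Morris hepatoma. The tables give no read counts, so what depth limits cannot be told. Cyp7a1 has no value with the filter at 5 RPKM.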
